A study of Homo sapiens with 6 samples.

Results

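Tubulin isotypes are the products of separate genes for the α- and β-tubulin chains. By their symbols, 10 of the 60623 genes in the count table were taken, 4 for α-tubulin (*TUBA1A*, *TUBA1B*, *TUBA1C*, and *TUBA4A*) and 6 for β-tubulin (*TUBB*, *TUBB2A*, *TUBB2B*, *TUBB3*, *TUBB4A*, and *TUBB6*). The set was selected on this same comparison of mocetinostat with DMSO, so the fold changes of these 10 genes are given as a description, without a test. All 10 were among the 13966 genes that passed the expression filter. By their known tissue distribution, and not by the present values, *TUBA1B*, *TUBA1C*, *TUBB*, and *TUBB6* were grouped as housekeeping isotypes (4 genes), and *TUBA1A*, *TUBA4A*, *TUBB2A*, *TUBB2B*, *TUBB3*, and *TUBB4A* as neuron-type isotypes (6 genes). *TUBA1A*, *TUBA4A*, and *TUBB2A* are also expressed outside neurons, so that the second name stands for where these isotypes are most abundant and not for neurons alone.

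RNA was analyzed from TC28a2, an immortalized human chondrocyte line, after 24 hours with 2 μM mocetinostat, an inhibitor of class I histone deacetylases (HDACs), or with its solvent DMSO. There were 3 samples per condition, which the study describes as independent experiments, all of this single line. Totals ranged from 4873426 to 11031132 counts with DMSO and from 1619344 to 5089542 counts with mocetinostat, so that weakly expressed genes were measured less precisely after treatment. The RNA is from bulk cultures, in which more cells with an mRNA and more of it per cell cannot be told apart.

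α- and β-tubulin pair into dimers, which assemble head to tail into the hollow tubes called microtubules. The folded bodies of the isotypes are very similar, and they differ most in their short acidic carboxy-terminal tails, which project from the microtubule surface, bind microtubule-associated proteins and motors, and carry added chains of glutamate. Most dividing cells rely on a few housekeeping isotypes, whereas differentiating neurons add isotypes such as *TUBB3*, a common neuron marker, and *TUBA1A*, the main α-tubulin of the developing brain.

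The tails are encoded by the last codons of each mRNA, shown for the 6 β-tubulin genes because the tail is where isotype proteins are known to differ most. The last 63 bases (21 codons, the stop included) were read from GRCh38 with GENCODE 44, and capitals mark the glutamate codons.
TUBB: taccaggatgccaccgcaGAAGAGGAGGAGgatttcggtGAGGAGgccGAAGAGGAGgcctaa
TUBB2A: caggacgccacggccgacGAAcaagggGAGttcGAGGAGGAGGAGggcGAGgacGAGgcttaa
TUBB2B: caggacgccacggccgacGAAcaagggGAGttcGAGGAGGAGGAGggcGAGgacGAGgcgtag
TUBB3: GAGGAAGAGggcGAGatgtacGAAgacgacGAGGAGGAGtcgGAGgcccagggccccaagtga
TUBB4A: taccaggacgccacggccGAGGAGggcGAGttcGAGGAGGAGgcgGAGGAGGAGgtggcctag
TUBB6: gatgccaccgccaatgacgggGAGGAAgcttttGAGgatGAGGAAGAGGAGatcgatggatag
Glutamate codons numbered from 7 in *TUBB6* to 9 in *TUBB*, *TUBB3*, and *TUBB4A*. The *TUBB2A* and *TUBB2B* windows differed at 2 of 63 bases, and their whole coding sequences at 25 of 1338 bases (98.1% identical). *TUBB4A* and *TUBB*, which stand at opposite ends of the β-tubulin differences described next, were 83.7% identical over 1335 coding bases.

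The housekeeping α-tubulin genes were lower after mocetinostat treatment. *TUBA1B* (ENSG00000123416, GRCh38 chromosome 12 from 49127782 to 49131397, minus strand), the most abundant α-tubulin mRNA with DMSO, measured 823.7, 903.8, and 840.2 CPM (its count over the library's total adjusted by edgeR's TMM method, times 1e6) in DMSO samples 1 to 3, and 401.1, 420.2, and 418.2 CPM in the 3 mocetinostat samples. Its mean went from 855.9 ± 42.3 to 413.1 ± 10.5 CPM (SD, n = 3), a difference of -1.05 ± 0.07 in log2 units (standard error, SE). *TUBA1C* (ENSG00000167553, chromosome 12 from 49188736 to 49274600, plus strand) measured 582.8, 680.9, and 750.6 CPM with DMSO and 460.5, 425.1, and 459.6 CPM with mocetinostat, with means of 671.4 ± 84.3 and 448.4 ± 20.2 CPM (SD, n = 3), a difference of -0.58 ± 0.08 in log2 units (SE). For both genes all treated samples lay below all DMSO samples.

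Among the housekeeping β-tubulin genes, *TUBB* carried most of the mRNA. *TUBB* (ENSG00000196230, chromosome 6 from 30717435 to 30725538, plus strand) encodes the class I β-tubulin of most dividing cells. It measured 2098, 1967, and 1942 CPM with DMSO and 1055, 1048, and 1057 CPM with mocetinostat, and its mean went from 2003 ± 83.7 to 1053 ± 4.64 CPM (SD, n = 3), a difference of -0.93 ± 0.06 in log2 units (SE). The treated samples were close together and far below the DMSO samples. *TUBB6* (ENSG00000176014, chromosome 18 from 12307669 to 12344320, plus strand), the divergent class V β-tubulin, differed least of the 10 genes. It measured 260.2, 277.8, and 312.7 CPM with DMSO and 229.8, 217.5, and 247.8 CPM with mocetinostat, a difference of -0.29 ± 0.08 in log2 units (SE) that became 0.24 with libraries scaled by their GAPDH counts.

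**Figure D1:**
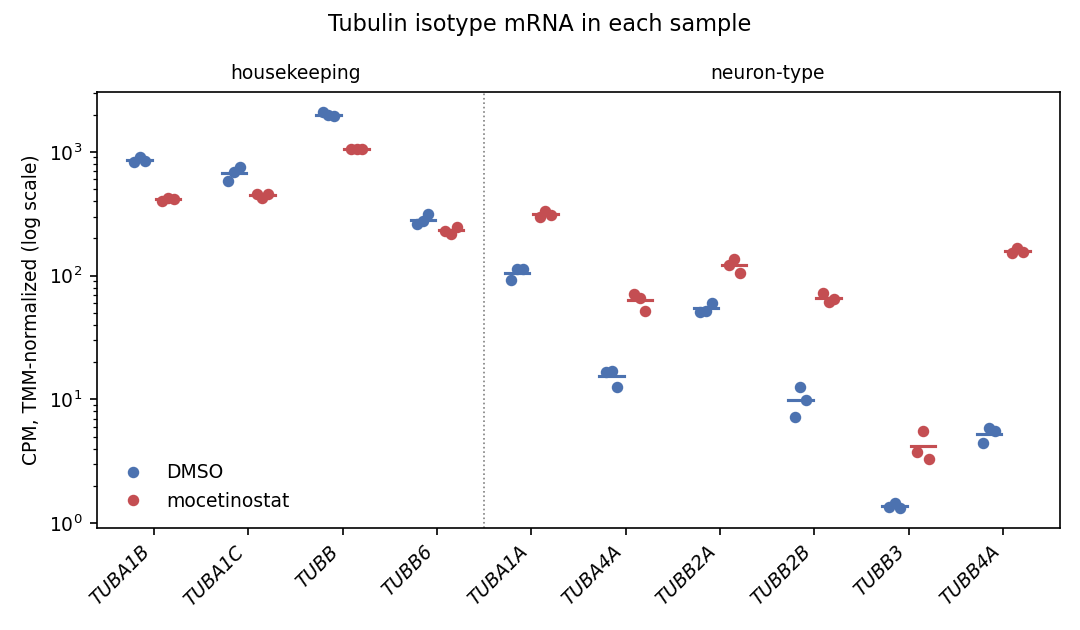
TMM-normalized CPM of the 10 tubulin isotypes on a log axis, with one point per sample and a line at the mean of each condition (n = 3). Every mocetinostat point lies above every DMSO point for the 6 neuron-type isotypes, from *TUBB3* near 1.38 and 4.22 CPM to *TUBA1A* near 105.7 and 314.2 CPM, and below for the 4 housekeeping isotypes, although *TUBB6* changes direction under GAPDH scaling (log2 fold change 0.24).

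The neuron-type α-tubulin genes went the other way. *TUBA1A* (ENSG00000167552, chromosome 12 from 49184686 to 49189080, minus strand) measured 91.7, 112.7, and 112.7 CPM with DMSO and 297.8, 334.0, and 310.8 CPM with mocetinostat. Its mean went from 105.7 ± 12.1 to 314.2 ± 18.4 CPM (SD, n = 3), 2.97-fold, a difference of 1.57 ± 0.09 in log2 units (SE). The lowest treated sample was above the highest DMSO sample by more than the whole spread within either condition. *TUBA4A* (ENSG00000127824, chromosome 2 from 219249710 to 219277902, minus strand), an α-tubulin of brain and muscle, measured 16.6, 17.1, and 12.7 CPM with DMSO and 71.0, 66.3, and 52.2 CPM with mocetinostat, 4.08-fold between the means, a difference of 2.04 ± 0.16 in log2 units (SE).

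The neuron-type β-tubulin genes spanned the widest range, and *TUBB4A* stood at its top. *TUBB4A* (ENSG00000104833, chromosome 19 from 6494319 to 6502848, minus strand) encodes the class IVa β-tubulin, which is largely limited to the nervous system. With DMSO its counts were 49, 28, and 38, and with mocetinostat they were 768, 272, and 377, which is 4.43, 5.83, and 5.60 CPM against 152.3, 168.6, and 156.2 CPM. The means of 5.29 ± 0.749 and 159.0 ± 8.50 CPM (SD, n = 3) differed 30.1-fold, a difference of 4.94 ± 0.15 in log2 units (SE), and the gene ranked 308 among the 13966 genes ordered by log2 fold change from the top. Its lead over the other isotypes was wide, since the next log2 fold change among the 10 genes was that of *TUBB2B*.

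*TUBB2B* and *TUBB2A* encode the nearly identical class II β-tubulins of the brain. *TUBB2B* (ENSG00000137285, chromosome 6 from 3223324 to 3231730, minus strand) measured 7.24, 12.7, and 9.87 CPM with DMSO and 72.6, 60.7, and 65.1 CPM with mocetinostat, 6.65-fold between the means, a difference of 2.81 ± 0.17 in log2 units (SE). *TUBB2A* (ENSG00000137267, chromosome 6 from 3153497 to 3157544, minus strand, 65.8 kb from *TUBB2B*) measured 50.4, 51.9, and 60.6 CPM with DMSO and 122.9, 135.1, and 105.3 CPM with mocetinostat, 2.23-fold between the means, a difference of 1.15 ± 0.12 in log2 units (SE). *TUBB2A* thus started higher and differed less than its near copy.

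*TUBB3* (ENSG00000258947, chromosome 16 from 89921392 to 89938761, plus strand), the class III β-tubulin used to mark neurons, remained by these counts the rarest of the 10 isotypes in both conditions. Its counts were 15, 7, and 9 with DMSO, against 19, 9, and 8 with mocetinostat, which after scaling to library size is 1.36, 1.46, and 1.33 CPM against 3.77, 5.58, and 3.32 CPM. The log2 fold change was 1.54, with a standard error of 0.50 that is the largest among the 10 genes. *TUBB3* passed the filter through its treated samples alone, since none of the 3 DMSO samples and all 3 mocetinostat samples reached the limit of 2.01 CPM, so it had to differ in order to be tested at all.

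By the thresholds of the study (an adjusted p under 0.05 together with a log2 fold change beyond 1 or -1 in edgeR's quasi-likelihood test), 6 of the 10 isotypes were called upregulated, where 20.2% of all genes tested were. Of the 10, 1 (*TUBA1B*) was called downregulated, where 8.18% of all genes tested were. All treated samples lay above all DMSO samples in the 6 neuron-type genes, as in 33.7% of all genes tested, and below them in the 4 housekeeping genes, as in 32.8% of all genes tested. The median log2 fold change was 1.81 in the neuron-type group (range 1.15 to 4.94), -0.76 in the housekeeping group (range -1.05 to -0.29), and 0.00 over all genes tested. These counts follow from how the set was selected and are not evidence of their own. With libraries scaled by their GAPDH counts instead of by TMM, the median of all genes moved up by 0.53 on the log2 scale, and the split over all genes changed from 2827 upregulated and 1142 downregulated to 4425 and 284. *GAPDH* itself went from 3039 ± 89.8 to 2111 ± 76.3 CPM (SD, n = 3). Under that scaling *TUBA1B* was no longer called (log2 fold change -0.52), *TUBA1C* stood at -0.05, *TUBB* at -0.40, and *TUBB6* at 0.24, while the 6 neuron-type isotypes ranged from 1.68 to 5.47.

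**Figure D2:**
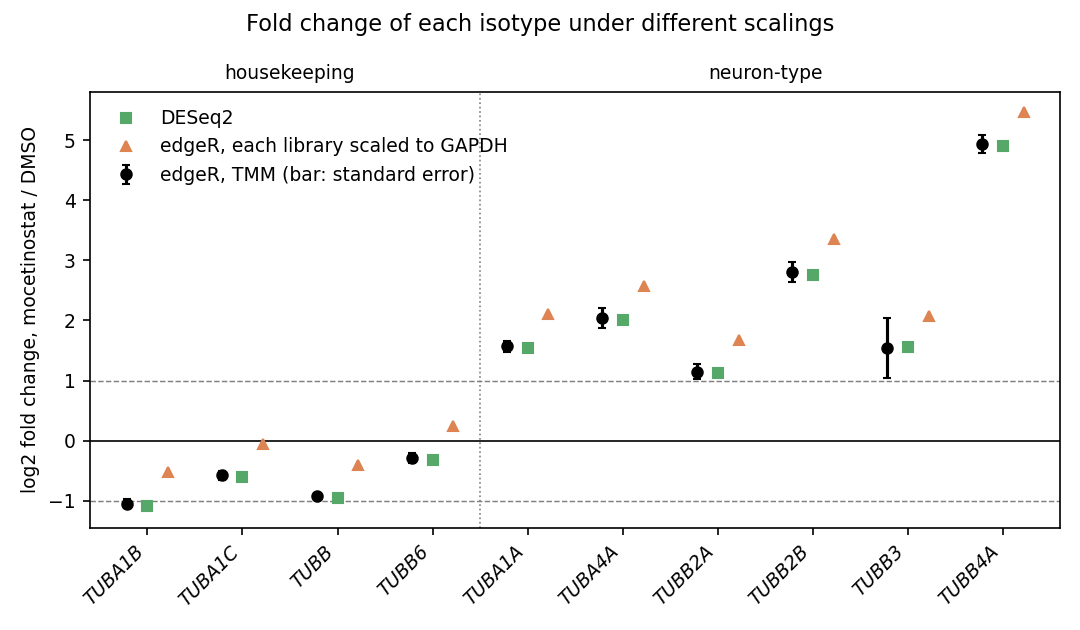
Log2 fold change of each isotype (mocetinostat over DMSO) from edgeR with TMM scaling (black, bars are standard errors), DESeq2 (green), and edgeR with GAPDH scaling (orange); dashed lines mark a log2 fold change of 1 and -1. The 6 neuron-type isotypes lie above 0 in all 3 fits and reach 4.94 in *TUBB4A*, whereas *TUBB6* lies at -0.29 under TMM and at 0.24 under GAPDH scaling.

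Shares of isotypes within a sample do not depend on how libraries are scaled. The neuron-type genes made up 2.62%, 3.10%, and 3.32% of the β-tubulin counts of these 6 genes in the 3 DMSO samples, and 21.5%, 22.6%, and 20.2% of them in the 3 mocetinostat samples. The mean share went from 3.01 ± 0.358% to 21.4 ± 1.22% (SD, n = 3). The widest 95% Clopper-Pearson interval was that of the shallowest library, mocetinostat replicate 2, from 21.0% to 24.3%, and these intervals cover counting error only. The intervals of the treated samples all lay above those of the DMSO samples. As the genes were selected on this same comparison, that separation is a description and not evidence of its own. In α-tubulin the neuron-type share was higher to begin with. It was 7.15%, 7.57%, and 7.31% with DMSO and 30.0%, 32.1%, and 29.3% with mocetinostat, a mean of 7.34 ± 0.209% against 30.5 ± 1.5% (SD, n = 3). Most of the α-tubulin share is *TUBA1A*, and with that gene counted as housekeeping it was 0.944% and 5.10%.

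Among single genes, *TUBB* gave up the most of the β-tubulin pool, from 84.9 ± 1.68% to 64.4 ± 0.295% of its counts (SD, n = 3). *TUBB4A* went from 0.225 ± 0.0367% to 9.72 ± 0.520%, *TUBB2A* from 2.31 ± 0.265% to 7.40 ± 0.915%, *TUBB2B* from 0.423 ± 0.125% to 4.04 ± 0.365%, and *TUBB6* from 12 ± 1.33% to 14.2 ± 0.937% (SD, n = 3). *TUBB3* stayed below 1% in both conditions, at 0.0586% and 0.258%. The α-tubulin pool changed mostly through 2 neighbours on chromosome 12, with *TUBA1B* going from 52.0 ± 2.78% to 33.3 ± 0.646% and *TUBA1A* from 6.40 ± 0.297% to 25.4 ± 1.33% (SD, n = 3). *TUBA1C* held 40.6 ± 2.75% and then 36.2 ± 1.80%, so that its share differed less than those of its neighbours.

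**Figure D3:**
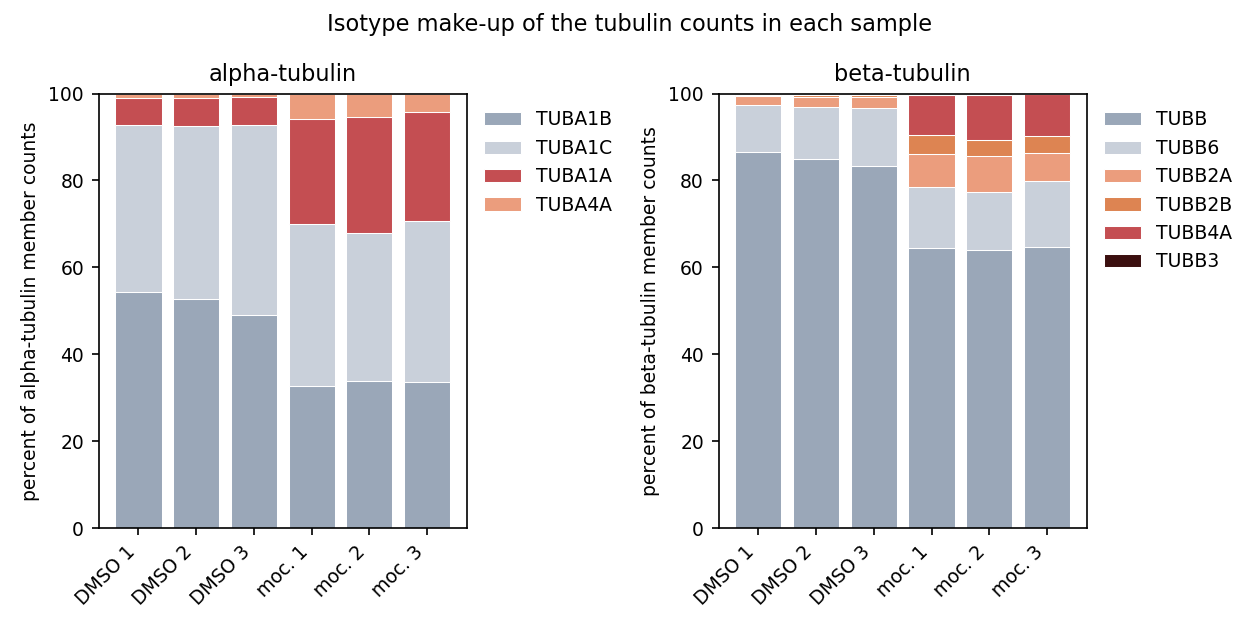
Percent of the α-tubulin counts (left) and of the β-tubulin counts (right) taken by each gene in each of the 6 samples, with housekeeping isotypes in grey and neuron-type isotypes in red and orange. The coloured part grows from 7.34% to 30.5% of α-tubulin and from 3.01% to 21.4% of β-tubulin (means of 3 samples), with *TUBB4A* by counts the largest coloured block of the treated β-tubulin bars.

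The gain of the neuron-type mRNAs did not make up for the housekeeping mRNAs in CPM. The neuron-type genes together went from 192.1 ± 17.6 to 727.8 ± 39.2 CPM (SD, n = 3), a gain of 535.8 CPM, and the housekeeping genes from 3813 ± 42.9 to 2146 ± 35.8 CPM, a loss of 1667 CPM that was 3.11 times the gain. All 10 genes together stood at 4006 ± 60.3 CPM with DMSO and 2874 ± 7.42 CPM with mocetinostat, a log2 ratio of -0.48 that became 0.05 with scaling by GAPDH. The housekeeping sum stayed lower under GAPDH scaling (log2 ratio -0.30), and the neuron-type sum stayed higher (2.44). The ratio of β- to α-tubulin counts was 1.6, 1.35, and 1.36 with DMSO and 1.33, 1.31, and 1.32 with mocetinostat, so that DMSO replicate 1 stood apart from the other 5 samples.

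Levels were compared between genes after division by the length of the canonical transcript, as CPM per kilobase. With DMSO the order was *TUBB* (796.3), *TUBA1B* (526.0), *TUBA1C* (237.8), *TUBB6* (150.9), *TUBA1A* (63.2), *TUBB2A* (33.6), *TUBA4A* (7.55), *TUBB2B* (5.17), *TUBB4A* (2.32), and *TUBB3* (0.809). Only the neighbours *TUBA4A* and *TUBB2B* overlapped between samples in that order. With mocetinostat the order was *TUBB* (418.7), *TUBA1B* (253.9), *TUBA1A* (187.9), *TUBA1C* (158.8), *TUBB6* (123.3), *TUBB2A* (74.9), *TUBB4A* (69.8), *TUBB2B* (34.4), *TUBA4A* (30.8), and *TUBB3* (2.47). Here *TUBB2A* overlapped with *TUBB4A*, and *TUBB2B* with *TUBA4A*. The housekeeping genes *TUBB* and *TUBA1B* thus kept the first places by this measure. *TUBA1A* was above *TUBA1C* after treatment by canonical length, but below it when divided by the summed exon length (82.2 against 100.7 CPM per kilobase) and in plain CPM (314.2 against 448.4).

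How well reads could be assigned differed between the isotypes, because several are near copies of each other. Of the 100-base windows of the canonical transcript, the read length of the study, all occurred once in GRCh38 for *TUBB4A* and *TUBB6*, 97.8% for *TUBB* and *TUBA4A*, and 93.4% for *TUBB3*. The share was 86.4% for *TUBA1C*, 74.2% for *TUBA1A*, and 54.5% for *TUBA1B*. It was lowest for the class II pair, at 32.5% for *TUBB2A* and 41.9% for *TUBB2B*, which had 813 windows in common. How the authors' counting treated reads with several matches is not given in the sources used here. The split between *TUBB2A* and *TUBB2B* and among *TUBA1A*, *TUBA1B*, and *TUBA1C* is uncertain to that extent. If such reads were left out, the levels of these genes would also be too low against those of *TUBB4A* and *TUBB*. The isotype shares and the order per kilobase are uncertain to the same extent. When near copies were summed, *TUBB2A* and *TUBB2B* together had a log2 fold change of 1.55, and *TUBA1A*, *TUBA1B*, and *TUBA1C* together one of -0.47.

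Some isotypes also lie under other annotated genes. For *TUBB3*, 92.9% of the canonical transcript (1584 bases) lies under exons of the readthrough gene ENSG00000198211 on the same strand, and that gene held 0 counts in every sample. How reads that fit both genes were counted is not given in the sources used here. If such reads were left out, both genes would lose them. The 0 counts therefore do not settle the level of *TUBB3*, which may be understated in both conditions. For *TUBA1B*, 72.7% lies under the antisense gene *TUBA1B-AS1*, which held 25 counts or fewer in each sample against 678 or more for *TUBA1B*. For *TUBA4A*, 30.7% lies under *STK16* on the opposite strand, which held from 55 to 135 counts with DMSO and from 11 to 32 with mocetinostat. In each of the 6 samples *STK16* held fewer counts than *TUBA4A*. Whether the counting used strand is not given in the sources used here, so the levels of *TUBA1B* and *TUBA4A* are uncertain to that extent.

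**Figure D4:**
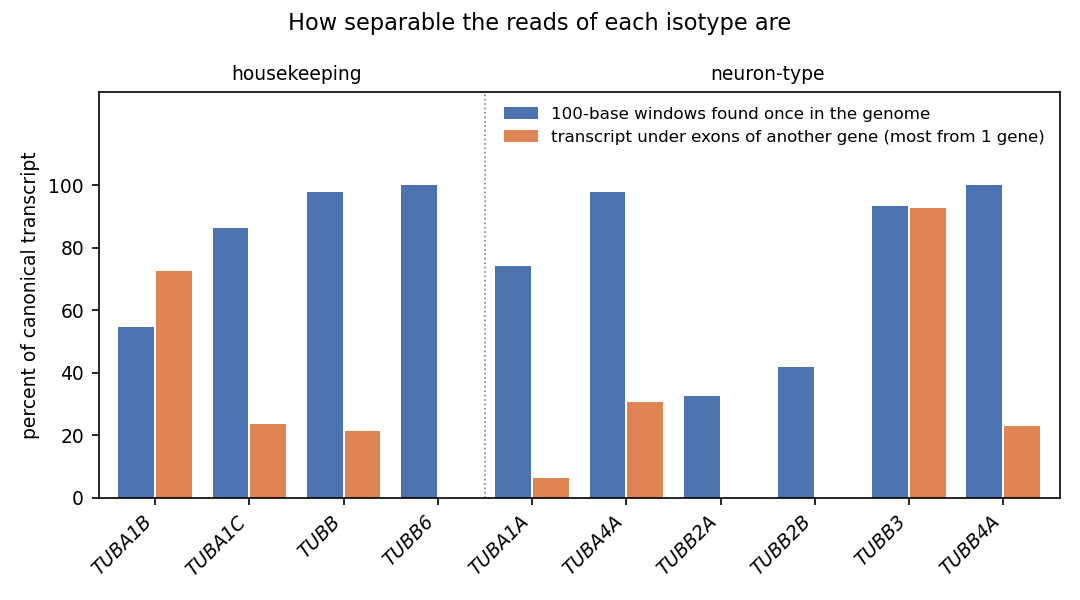
For each isotype, the percent of 100-base windows of its canonical transcript that occur once in the genome (blue) and the percent of that transcript under exons of another gene (orange, the largest overlap with a single gene). *TUBB4A* and *TUBB6* are fully separable by sequence at 100%, *TUBB2A* and *TUBB2B* least so at 32.5% and 41.9%, and *TUBB3* has the largest overlap.

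The promoters of 2 neuron-type and 2 housekeeping isotypes are shown because these genes stand at the ends of the response in their chains: *TUBB4A* and *TUBA4A* had the highest log2 fold changes, and *TUBB* and *TUBA1B* the lowest. Each holds 250 bases before and 50 after the RefSeq start site (GRCh38.p14), 5′ to 3′ on the strand of the gene, with capitals for the CCAAT box (CCAAT or ATTGG) and the GC box (GGGCGG or CCGCCC).
TUBB4A, chr19:6502260-6502559 (minus strand): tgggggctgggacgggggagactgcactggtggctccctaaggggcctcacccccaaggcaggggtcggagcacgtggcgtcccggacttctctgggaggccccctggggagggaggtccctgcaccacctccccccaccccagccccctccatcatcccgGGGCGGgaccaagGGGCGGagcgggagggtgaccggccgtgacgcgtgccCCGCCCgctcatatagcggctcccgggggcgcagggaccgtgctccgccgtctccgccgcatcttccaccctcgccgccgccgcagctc
TUBA4A, chr2:219253869-219254168 (minus strand): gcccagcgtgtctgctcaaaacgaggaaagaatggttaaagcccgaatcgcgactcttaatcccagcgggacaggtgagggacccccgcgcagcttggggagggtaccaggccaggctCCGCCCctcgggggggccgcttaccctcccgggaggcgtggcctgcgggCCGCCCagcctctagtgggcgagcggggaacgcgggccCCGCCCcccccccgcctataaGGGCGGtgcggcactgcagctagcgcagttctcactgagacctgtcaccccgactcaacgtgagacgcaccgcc
TUBB, chr6:30720102-30720401 (plus strand): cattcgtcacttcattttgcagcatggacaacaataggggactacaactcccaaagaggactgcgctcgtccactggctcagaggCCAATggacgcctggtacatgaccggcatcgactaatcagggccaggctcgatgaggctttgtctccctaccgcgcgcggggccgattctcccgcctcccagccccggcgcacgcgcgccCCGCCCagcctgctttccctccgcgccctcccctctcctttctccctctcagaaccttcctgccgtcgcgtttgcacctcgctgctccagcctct
TUBA1B, chr12:49131346-49131645 (minus strand): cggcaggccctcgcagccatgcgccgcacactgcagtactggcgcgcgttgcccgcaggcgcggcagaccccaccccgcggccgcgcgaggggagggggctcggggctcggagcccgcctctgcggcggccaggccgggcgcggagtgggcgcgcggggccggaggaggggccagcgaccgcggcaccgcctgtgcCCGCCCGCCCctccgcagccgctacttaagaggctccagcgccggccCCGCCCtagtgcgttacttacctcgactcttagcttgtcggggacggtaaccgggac
All 10 isotypes matched an entry. A CCAAT box was found in 6 of the 10 windows and in 34.6% of 35116 promoters of the same length, and a GC box in 9 of the 10 windows and in 45% of those promoters. The TATA box letters (TATAAA or TTTATA) were found in *TUBB2A* alone, and in 11.5% of all promoters. *TUBB4A* and *TUBA4A* held no CCAAT box, with 3 and 4 GC boxes. *TUBB* held 1 of each, and *TUBA1B* held no CCAAT box and 3 GC boxes, of which a pair overlapped. Neither motif separated the groups in these windows.

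Other genes of the tubulin pathway were taken from lists by role. These lists were chosen with earlier results of these data known. Their counts and p-values are therefore descriptions and not independent evidence. Of 11 other tubulin genes, 3 passed the filter and none was called. *TUBB4B*, a broadly expressed class IVb β-tubulin and close relative of *TUBB4A*, went from 725.9 ± 27.4 to 564.4 ± 34.6 CPM (SD, n = 3), a difference of -0.37 ± 0.07 in log2 units (SE, edgeR adjusted p = 6.96e-06) that became 0.16 under GAPDH scaling. The 8 genes not tested included the testis, platelet, and primate-specific isotypes *TUBA3C*, *TUBB1*, and *TUBB8*. *TUBB4A* and *TUBB4B* were thus on opposite sides of 0 under TMM and both above 0 under GAPDH scaling.

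Newly made tubulin chains are folded by prefoldin, the chaperonin CCT, and the tubulin cofactors, and 21 of 21 such genes were tested. None was higher at an adjusted p under 0.05 (32.9% of all genes tested were), and 16 were lower (31.4% of all genes tested were). The list median was -0.39, whereas under GAPDH scaling it was 0.14, with 5 higher and 2 lower. With that scaling 9081 of all 13966 genes passed in either direction, and the median of all genes was 0.53. Only *VBP1*, a prefoldin subunit, was called, going from 55.4 ± 9.36 to 22.8 ± 4.73 CPM (SD, n = 3), a difference of -1.23 ± 0.16 in log2 units (SE, edgeR adjusted p = 1.62e-10), which was not called under GAPDH scaling. All 8 CCT genes were lower under TMM, from -0.26 in *CCT8* to -0.80 in *CCT5* in log2 units, whereas under GAPDH scaling they ranged from 0.27 in *CCT8* to -0.28 in *CCT5*.

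Cells also adjust tubulin mRNA to the amount of free dimer: TTC5 binds the first residues of a tubulin chain as it leaves the ribosome and, with SCAPER and CCR4-NOT, triggers decay of the mRNA. The bases that encode these residues are shown for isotypes of both groups, with codons 2 to 4 in capitals.
TUBA1B: atgCGTGAGTGC
TUBA4A: atgCGTGAATGC
TUBB: atgAGGGAAATC
TUBB2B: atgCGTGAGATC
TUBB4A: atgCGGGAGATC
*TUBA1A*, *TUBA1B*, and *TUBA1C* had the same 12 bases, as had *TUBB3* and *TUBB6*. None of the 3 genes of this list passed an adjusted p of 0.05 under TMM. Under GAPDH scaling 1 was higher at that limit and none was lower. The list median was then 0.29, where the median of all genes was 0.53. *TTC5* measured 32.3 ± 0.965 CPM with DMSO and 25.7 ± 4.02 CPM with mocetinostat (SD, n = 3), a difference of -0.30 ± 0.16 in log2 units (SE, edgeR adjusted p = 0.109).

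Microtubules are nucleated by γ-tubulin complexes. Of 12 genes tested, 2 were higher at an adjusted p under 0.05 (32.9% of all genes tested were) and 6 were lower (31.4% of all genes tested were). The list median was -0.47. Under GAPDH scaling it became 0.06, with 5 higher and 2 lower. With that scaling 9081 of all 13966 genes passed in either direction, and the median of all genes was 0.53. The γ-tubulin genes themselves were the 2 higher ones. *TUBG1*, the main γ-tubulin gene, went from 121.0 ± 5.15 to 143.3 ± 11.4 CPM (SD, n = 3), a difference of 0.26 ± 0.10 in log2 units (SE, edgeR adjusted p = 0.0173). *TUBG2*, its brain-enriched copy, went from 18.7 ± 3.95 to 42.6 ± 7.12 CPM (SD, n = 3), a difference of 1.19 ± 0.17 in log2 units (SE, edgeR adjusted p = 8.71e-09), and was not called when tested against a log2 fold change of 1 or without a filter. *MZT2A*, a small subunit with the near copy *MZT2B*, went from 28.7 ± 5.14 to 13.8 ± 2.33 CPM (SD, n = 3), a difference of -1.09 ± 0.20 in log2 units (SE, edgeR adjusted p = 2.82e-06). That call was lost without DMSO replicate 3 and without mocetinostat replicate 1, with values between -1.25 and -0.93 over the samples left out, and also under GAPDH scaling.

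Enzymes modify the tubulin tails and a lysine of α-tubulin. Of 24 genes, 18 were tested, 8 were called upregulated (20.2% of all genes tested were), 5 were lower at an adjusted p under 0.05 (31.4% of all genes tested were), and 6 of the list were not tested. The 5 of 18 that were lower are near the share over all genes. Under GAPDH scaling none was lower and 12 were higher, where 9081 of all 13966 genes passed in either direction. *TTLL6* and *AGBL2* reached the filter's limit in treated samples alone and so had to differ, and 6 of the other 16 were called. *TTLL7*, which adds glutamates to β-tubulin tails, rose from 7.62 ± 0.733 to 37.8 ± 8.49 CPM (SD, n = 3), a difference of 2.33 ± 0.20 in log2 units (SE, edgeR adjusted p = 6.08e-17). *AGTPBP1*, which removes such glutamates, rose from 17.2 ± 1.54 to 75.0 ± 4.91 CPM (SD, n = 3), a difference of 2.12 ± 0.14 in log2 units (SE, edgeR adjusted p = 4.67e-22). Genes of opposing activities therefore rose together. *VASH1*, which cleaves the final tyrosine from α-tubulin, rose from 49.9 ± 6.24 to 102.6 ± 10.3 CPM (SD, n = 3), a difference of 1.05 ± 0.12 in log2 units (SE, edgeR adjusted p = 4.59e-12). It was not called without DMSO replicate 1, without mocetinostat replicate 1, or without mocetinostat replicate 2, with values between 0.93 and 1.12 over the samples left out. *HDAC6*, the tubulin deacetylase, measured 41.9 ± 7.61 and 44.7 ± 1.83 CPM (SD, n = 3), a difference of 0.09 ± 0.14 in log2 units (SE, edgeR adjusted p = 0.583).

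**Figure D5:**
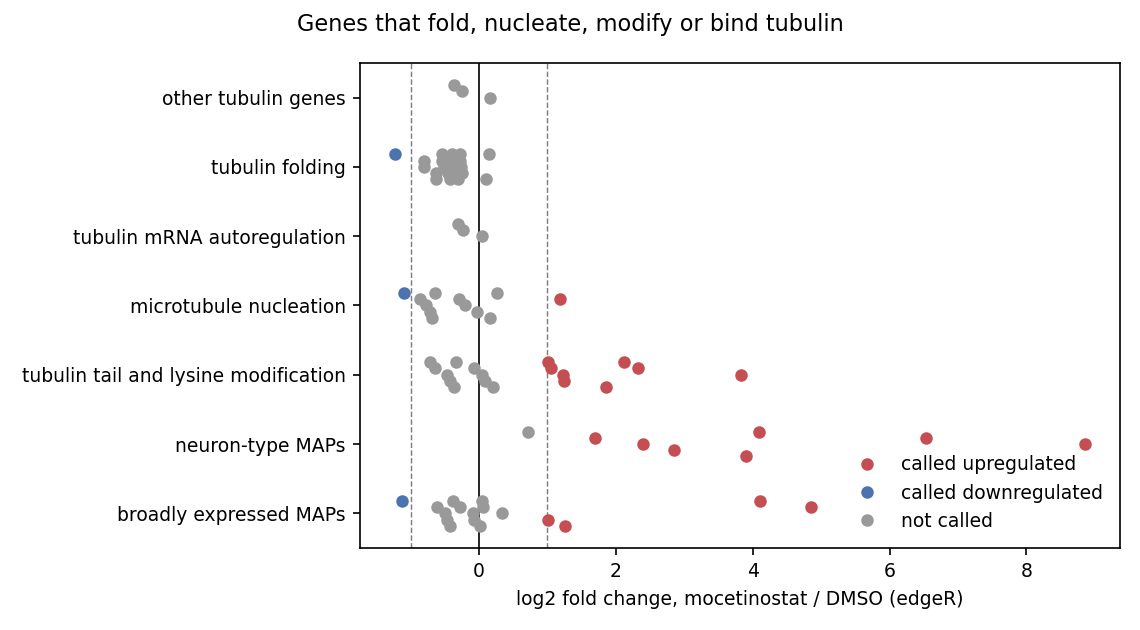
Log2 fold change (mocetinostat over DMSO, edgeR with TMM scaling) of every tested gene in 7 role lists, with one point per gene, red for called upregulated, blue for called downregulated, grey for not called, and dashed lines at 1 and -1; MAPs are microtubule binding proteins. The folding genes lie mostly just below 0 (median -0.39, but 0.14 under GAPDH scaling), and 7 of the 8 neuron-type MAPs lie beyond 1. Of these 7, *MAP2*, *MAP6*, and *STMN4* had to differ in order to be tested. The rightmost point, *STMN4*, rests on 0 counts in all DMSO samples.

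Microtubule binding proteins of neurons form the next list, which was also chosen with earlier results of these data known. Of 10 genes, 8 were tested, 7 were called upregulated (20.2% of all genes tested were), all 8 were higher at an adjusted p under 0.05 (32.9% of all genes tested were), and *DCX* and *STMN2* were not tested. *MAP2*, *MAP6*, and *STMN4* reached the filter's limit in treated samples alone and so had to differ. Of the other 5 genes, 4 were called upregulated and 5 were higher at an adjusted p under 0.05. The list median was 3.37, also with *STMN4* at its lower bound. That median includes the 3 genes that had to differ and is not free of that selection. The summed level ranged from 579.5 to 609.1 CPM with DMSO and from 1260 to 1328 CPM with mocetinostat. Most of that sum was *MAP1B*, at 542.6 ± 13.6 and 894.1 ± 39.3 CPM (SD, n = 3). It was the tested gene not called, with a difference of 0.72 ± 0.07 in log2 units (SE). The sum therefore says little about the other genes of the list. *MAP2*, a marker of dendrites, had 8, 6, and 3 counts with DMSO, against 359, 117, and 174 with mocetinostat, a difference of 6.53 ± 0.25 in log2 units (SE). *MAPT*, which encodes tau of axons, rose from 5.02 ± 0.573 to 87.4 ± 3.28 CPM (SD, n = 3), a difference of 4.09 ± 0.17 in log2 units (SE, edgeR adjusted p = 6.36e-34). *MAP1A*, which binds microtubules of mature neurons, rose from 16.1 ± 2.09 to 114.6 ± 14.2 CPM (SD, n = 3), a difference of 2.85 ± 0.14 in log2 units (SE, edgeR adjusted p = 7.27e-30). In *MAPT* and *MAP1A* all treated samples lay above all DMSO samples, as in 33.7% of all genes tested. For *MAP2* this followed from the filter. *STMN4*, a stathmin, held 0 counts in every DMSO sample and 54, 22, and 22 with mocetinostat, at least 25-fold higher against a floor of 3 counts per library.

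Of the list named for broadly expressed microtubule binding proteins, all 17 were tested. There were 4 called upregulated (20.2% of all genes tested), 1 called downregulated (8.18% of all genes tested), and 6 lower at an adjusted p under 0.05 (31.4% of all genes tested), shares near those of all genes. Their median log2 fold change was -0.08, which became 0.46 under GAPDH scaling. *MAP7*, a cofactor of kinesin-1, rose from 1.18 ± 0.780 to 31.1 ± 3.26 CPM (SD, n = 3), a difference of 4.85 ± 0.32 in log2 units (SE), and reached the filter's limit in treated samples alone. *CAMSAP3*, which protects microtubule minus ends, rose from 2.66 ± 1.08 to 50.4 ± 10.1 CPM (SD, n = 3), a difference of 4.11 ± 0.23 in log2 units (SE, edgeR adjusted p = 1.98e-26). Both were scarce with DMSO, so the name of the list does not describe them in this line. *MAPRE2*, a plus-end tracking protein, rose from 72.7 ± 2.20 to 147.1 ± 9.21 CPM (SD, n = 3), a difference of 1.01 ± 0.10 in log2 units (SE, edgeR adjusted p = 6.9e-14), and was not called by DESeq2 or without DMSO replicate 1, DMSO replicate 2, or mocetinostat replicate 3 (between 0.95 and 1.05 over the samples left out). *CKAP5*, the microtubule polymerase chTOG, fell from 468.0 ± 11.1 to 214.7 ± 9.02 CPM (SD, n = 3), a difference of -1.13 ± 0.08 in log2 units (SE, edgeR adjusted p = 4.76e-21), and was not called under GAPDH scaling.

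Markers of neurons and of chondrocytes were examined beside the neuron-type tubulins. These lists too were chosen with earlier results known, so their counts are descriptions. Of 10 neuron markers, 8 were tested and 8 were called upregulated (20.2% of all genes tested were), with *RBFOX3* and *ELAVL4* not tested. *ELAVL3*, *NEFL*, *NEFM*, *NEFH*, and *SYT1* reached the filter's limit in treated samples alone and so had to differ, and the other 3 were all called. The summed level ranged from 28.0 to 29.8 CPM with DMSO and from 290.5 to 332.5 CPM with mocetinostat. No neuron marker was at 0 in all samples. The untested *RBFOX3* held 2, 0, and 0 counts with DMSO, and *ELAVL4* 1, 1, and 5. Each held 8, 3, and 1 with mocetinostat, so these 2 markers stayed scarce after treatment. The list median of 5.28 became 4.05 with *NEFL*, *NEFM*, and *SYT1* at their lower bounds, since these 3 held 3 counts or fewer in every DMSO sample. Both medians include the 5 genes that had to differ and are not free of that selection. *INA*, an intermediate filament of neurons, rose from 13.1 ± 2.31 to 100.9 ± 5.08 CPM (SD, n = 3), a difference of 2.98 ± 0.14 in log2 units (SE, edgeR adjusted p = 7.74e-30). The RNA binding protein gene *ELAVL3* and the neurofilament gene *NEFH* were higher by 5.29 ± 0.27 and 7.02 ± 0.28 log2 units (SE), the latter from 7, 4, and 0 counts. Of 11 chondrocyte markers, 8 were tested, all 8 were higher at an adjusted p under 0.05 (32.9% of all genes tested were) and 6 were called upregulated (20.2% of all genes tested were), with *SOX6*, *COL9A1*, and *COL11A1* not tested. *SOX5* and *COMP* reached the filter's limit in treated samples alone, and of the other 6, 6 were higher and 4 were called. Their summed level ranged from 116.0 to 140.1 CPM with DMSO and from 257.8 to 299.0 CPM with mocetinostat. The matrix genes *COL2A1*, *ACAN*, and *COMP* had the smallest p among the called genes of this list, with log2 fold changes of 3.70, 2.75, and 3.64 from 2.20, 4.72, and 0.483 CPM with DMSO. *SOX9*, the master regulator of chondrocytes, stood at 106.4 CPM with DMSO, while the untested markers held at most 13 counts in any sample, so that several defining chondrocyte markers were scarce in the untreated line. Whether cells with neuron markers contributed to the neuron-type tubulin mRNA was not tested.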

How the data were processed

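RNA-Seq of 6 TC28a2 samples (3 per condition, grouped and numbered by their labels) was analyzed. The authors deposited raw counts of reads per gene, without normalization. According to the study's methods, single reads of 100 bases were trimmed, cleared of ribosomal RNA reads with SortMeRNA, aligned to GRCh38 (ENSEMBL) with STAR 2.6.1d, and assigned to genes with featureCounts 1.6.4. The authors used DESeq2 1.20.0 for their own tests. Use of strand and treatment of multi-mapped reads are not given in the sources used here, which matters for near-identical and overlapping tubulin genes.

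edgeR 4.0.16 (limma 3.58.1, R 4.3.3) computed TMM factors, kept 13966 genes by filterByExpr (minimum count 10), and ran the quasi-likelihood test with treatment as the only term and Benjamini-Hochberg adjustment over all of them. Calls needed an adjusted p under 0.05 together with a log2 fold change beyond 1 or -1. The biological coefficient of variation was 9.30%. p-values measure the spread between these samples only. Pairs of replicates differed by more than sampling noise (chi-square per degree of freedom from 1.96 to 7.19). Each was treated as a replicate, as the study describes independent experiments, which this value alone cannot show. The fits were tested on simulated counts.

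The 10 members and the role lists were chosen with earlier results of these data known. Named genes are the members, up to 3 called genes with the smallest p per role list and direction, *TUBB4B*, *HDAC6*, *TTC5*, *TUBG1*, *TUBG2*, *GAPDH*, and the 3 genes nearest in pattern to *TUBB*. The rule also named the genes nearest in pattern to *TUBB3*, and some sequences were read, that are not reported here. Genes named without a result of their own (untested list members and those at a lower bound), *CCT5*, *CCT8*, *STMN4*, *MAP6*, *TTLL6*, *AGBL2*, *SOX5*, *STK16*, *MZT2B*, *SOX9*, and *TUBA1B-AS1* were added after their values were seen. *MAP1B* was added in the same way. Positions, canonical transcripts, and coding sequences are from GENCODE 44, to which 99.5% of the genes matched by identifier, and promoters are from RefSeq on GRCh38.p14. Windows lay within exons and were matched exactly on either strand of the GRCh38 primary chromosomes. Python 3.11.15, pandas 2.3.3, and matplotlib 3.10.9 were used.

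The alternatives were DESeq2 1.42.0, RLE factors, library size only, GAPDH scaling, no filter, at least 10 counts in every sample, the replicate number as a block, glmTreat, libraries thinned to 1619344 counts, summed near copies, each sample left out, and, for shares, other classes and length scalings.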

Additional observations from a re-analysis of the deposited data

How the results depend on the processing

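With each sample left out in turn, 2842 to 3216 genes were called upregulated and 1173 to 1267 downregulated, and the 10 isotypes gave 6 to 6 and 1 to 1. The role lists gave 32 to 33 upregulated and 2 to 3 downregulated genes. The neuron-type share ranged from 2.86% to 3.21% and from 20.8% to 22.1% of β-tubulin, and from 7.23% to 7.44% and from 29.6% to 31.1% of α-tubulin (DMSO, then mocetinostat). Under GAPDH scaling, 4425 genes were called upregulated and 284 downregulated, with 0 isotypes and 0 role-list genes (3 with TMM) downregulated, and *TUBB6* (0.24) and *TUBB4B* (0.16) changed sign. With at least 10 counts in every sample, 1620 and 704 genes were called, with 0 isotypes downregulated and 18 role-list genes upregulated (34 with the default filter); fewer genes are tested under that filter. Without a filter, 2120 genes, 2 isotypes, and 7 role-list genes were called downregulated. glmTreat called 465 genes, 0 isotypes, and 0 role-list genes downregulated. Thinned libraries and summed near copies each left 0 isotypes downregulated. *TUBA1B* was the call lost, at -0.52 under GAPDH scaling, -0.97 with 10 counts required, -0.99 after thinning, and within a sum at -0.47 with its near copies. *TUBB* became the second isotype called without a filter, at -1.18. Upregulated isotypes numbered 5 with DESeq2 (without *TUBB3*) and 4 without a filter or with glmTreat (without *TUBB2A* and *TUBB3*). *TUBB3* had too few counts to be tested with 10 counts required or after thinning. Where not stated, the cause was not tested.

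The neuron-type share of β-tubulin (DMSO, then mocetinostat) was 0.707% and 14.0% with *TUBB2A* counted as housekeeping, 3.91% and 25.3% after division by the summed exon length, 2.30% and 15.9% with *TUBB4B* added, and 4.24% and 25.1% after division by the canonical transcript length, an alternative chosen after seeing the data. That of α-tubulin was 6.40% and 25.4% with *TUBA4A* counted as housekeeping, 0.944% and 5.10% with *TUBA1A* counted as housekeeping (also chosen after seeing the data), and 8.47% and 34.6% by canonical length. The share was higher with mocetinostat in all of these.

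Samples with the same number did not deviate together over all genes (correlations of 0.01, 0.01, and -0.02), so no pairing by number was seen. Such correlations could miss a weak shared effect, so pairing is not excluded. With the replicate block, 2798 genes were called upregulated and 1133 downregulated, and 6 and 1 of the isotypes. Few counts limited *TUBB3* the most, with at most 19 in a sample.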

Other observations

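Among all genes tested, those whose log2 CPM followed *TUBB* most closely over the 6 samples, each centred on its own mean, were *DDX17* (root mean square difference 0.022), *RIF1* (0.030), and *UBE2J1* (0.033). These are descriptions over 6 samples of 2 conditions, and many genes share a difference between conditions of this size.

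Tubulin pseudogenes held few counts. The table held 40 tubulin pseudogenes by symbol, 15 of them with 0 counts in all samples and none of them passing the filter. Together they held 200 counts over the 6 samples, against 116391 for the 10 isotypes, and the largest count of one pseudogene in one sample was 21. If reads with several matches were left out, the pseudogene counts would be too low as well.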
